A study of Mus musculus with 8 samples.

Results

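The core circadian clock genes examined here are the 10 repressors and outputs of the liver clock chosen by symbol: Per1, Per2, Per3, Cry1, Cry2, Nr1d1, Nr1d2, Dbp, Bhlhe40 and Bhlhe41. All 10 were found among the 35976 genes of the deposited table, and all 10 passed the filter on low counts that left 14036 genes for testing. They were measured by RNA sequencing of whole liver in 2 groups of mice, both kept on a high fat diet. The OPA1_LKO group held 3 libraries from mice in which Opa1, the GTPase that fuses the inner mitochondrial membrane, was deleted in hepatocytes, and the CTRL group held 5 libraries from mice without that deletion. The labels give no Cre driver, deleted exons, age, sex, batch or hour of tissue collection, and do not say that each library is a separate animal, so all p-values measure the spread between these libraries, which may be technical in part. The deletion is named for hepatocytes, and Opa1 in other cells of the liver was not measured separately. In whole tissue, fewer cells of a type and less RNA per cell cannot be told apart.

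The mammalian clock is a transcriptional loop. CLOCK and BMAL1 (the product of Arntl) bind E-box sequences and switch on their own repressors: the PER and CRY proteins, which return to the nucleus and silence them, and DEC1 and DEC2 (the products of Bhlhe40 and Bhlhe41), which compete for the E-box. The same E-boxes drive Nr1d1 and Nr1d2, whose REV-ERB proteins repress Arntl through ROR elements, and Dbp, a PAR bZIP activator that acts through D-boxes. In mouse liver the transcripts of Dbp and Nr1d1 are known to peak in the light phase, those of the Per genes around dusk and that of Arntl towards the end of the night. Feeding, glucocorticoids and body temperature set the phase of this loop in liver, and Per1 is a direct target of the glucocorticoid receptor.

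Promoter sequences were available for 8 of the 10 genes (9 promoters, RefSeq, GRCm38.p6), each from 250 bases before to 50 bases after a transcription start. They are shown because these motifs are the sites through which the clock factors are known to act, and the choice of members did not use them. Both strands were searched for the E-box CACGTG, the D-box TTATGNAA and the core ROR motif AGGTCA, and no match of one motif overlapped a match of another in these promoters. An E-box was present in 3 of the 9 promoters (Per1, Cry1 and Bhlhe41), against 7.15% of all 32851 promoters of that length. A D-box was present in 2 (Per1 and Per3), against 3.38% of all promoters, and a core ROR motif in 2 (Per1 and Nr1d2), against 16.3%. The ROR consensus, which is that core with an A/T-rich flank, was in 0 of the 9 and in 0.384% of all. The 250 bases before the start are printed below for the 4 promoters with an E-box or D-box, with those motifs in capitals. They lie at chr6:145865421-145865670 on the minus strand for Bhlhe41, chr11:69098699-69098948 on the plus strand for Per1, chr4:151044666-151044915 on the minus strand for Per3 and chr10:85185055-85185304 on the minus strand for Cry1. A match is a description of these letters and not of binding.
Bhlhe41: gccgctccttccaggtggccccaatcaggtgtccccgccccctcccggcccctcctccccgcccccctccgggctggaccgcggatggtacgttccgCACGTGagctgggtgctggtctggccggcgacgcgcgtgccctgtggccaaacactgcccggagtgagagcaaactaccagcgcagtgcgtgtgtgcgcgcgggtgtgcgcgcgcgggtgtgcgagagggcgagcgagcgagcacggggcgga
Per1: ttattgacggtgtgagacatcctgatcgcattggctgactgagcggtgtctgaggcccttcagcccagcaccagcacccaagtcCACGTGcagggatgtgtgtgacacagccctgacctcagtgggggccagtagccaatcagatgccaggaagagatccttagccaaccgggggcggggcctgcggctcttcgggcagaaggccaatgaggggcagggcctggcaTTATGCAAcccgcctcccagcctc
Per3: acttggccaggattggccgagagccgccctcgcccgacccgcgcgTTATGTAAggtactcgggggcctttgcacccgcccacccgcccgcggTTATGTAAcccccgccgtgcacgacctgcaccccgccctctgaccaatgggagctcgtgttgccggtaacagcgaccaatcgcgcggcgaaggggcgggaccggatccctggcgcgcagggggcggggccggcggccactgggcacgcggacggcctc
Cry1: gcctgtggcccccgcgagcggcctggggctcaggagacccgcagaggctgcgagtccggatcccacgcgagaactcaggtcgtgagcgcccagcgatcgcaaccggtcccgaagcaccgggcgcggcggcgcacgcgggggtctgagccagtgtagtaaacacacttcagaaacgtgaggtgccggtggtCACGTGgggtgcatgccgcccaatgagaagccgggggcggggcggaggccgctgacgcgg
Counted from the transcription start, the E-box began at position -153 in Bhlhe41, -166 in Per1 and -60 in Cry1. The D-box of Per1 began at -24, and Per3 carried 2 D-boxes, at -205 and -158.

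Reads assigned to genes summed to between 16627283 and 20471271 per OPA1_LKO library and between 16076404 and 20265229 per CTRL library. Opa1 itself was at 24.7, 34.4 and 34.0 CPM (TMM-scaled CPM, each count divided by the library's effective total) in the OPA1_LKO libraries and between 39.9 and 57.6 CPM in the CTRL libraries, without overlap, with an adjusted p of 0.0539 by edgeR. In TPM, the length-scaled measure described below, the groups overlapped for Opa1, since OPA1_LKO 2 at 7.45 TPM lay above CTRL 3 at 6.73 TPM. All 8 hepatocyte markers were detected, and the most abundant of them, Alb, ranged from 50831 to 67583 CPM in OPA1_LKO and from 42684 to 77090 CPM in CTRL. A pair of CTRL libraries stood apart: CTRL 1 had Apoe at 134 CPM, against 20759 CPM or more in every other library, and a summed level of 6 macrophage markers of 483 CPM, while CTRL 3 had the duct keratin Krt19 at 22.3 CPM, where the other CTRL libraries had 0.319 to 1.03 CPM. Counts of changed genes that turn on these libraries are given beside the results.

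Per unit of transcript length, Dbp was the most abundant of the 10 genes in both groups, at 106 ± 17.1 TPM (transcripts scaled by their length and to the library's total) in OPA1_LKO and 136 ± 26.0 TPM in CTRL (SD, n = 3 and 5). In OPA1_LKO it was followed by Nr1d1 at 26.0 ± 5.56 TPM, Per1 at 14.4 ± 2.98 TPM, Bhlhe40 at 10.99 ± 4.82 TPM and Nr1d2 at 10.8 ± 1.54 TPM. In CTRL the order was Nr1d1 at 36.1 ± 17.2 TPM, Bhlhe40 at 17.6 ± 3.19 TPM, Nr1d2 at 13.07 ± 1.84 TPM and then Per1 at 6.32 ± 3.25 TPM. Per1 thus stood above Bhlhe40 and Nr1d2 in OPA1_LKO and below both in CTRL. Cry2, Per2 and Per3 lay between 3.44 and 6.88 TPM in OPA1_LKO libraries and between 3.67 and 8.67 TPM in CTRL libraries. Cry1 and Bhlhe41 were the least abundant, at 2.80 ± 0.971 and 0.283 ± 0.0737 TPM in OPA1_LKO and at 1.80 ± 0.614 and 0.826 ± 0.221 TPM in CTRL. The TPM ranges of neighbours in this order overlapped in OPA1_LKO among Per1, Bhlhe40 and Nr1d2, between Per2 and Cry2 and between Per3 and Cry1. In CTRL they overlapped between Nr1d1 and Bhlhe40, between Bhlhe40 and Nr1d2 and among Per1, Cry2 and Per2, and Cry1 and Bhlhe41 met at 1.15 TPM.

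Of the 10 clock genes, 1 changed in OPA1_LKO relative to CTRL and 9 did not pass the test (edgeR quasi-likelihood test, adjusted over all 14036 genes, threshold 0.05). The changed gene, Bhlhe41, fell. Over all genes, 846 changed, which is 6.03% of those tested, and 2.69% of tested genes fell, against 1 of 10 here, a count too small to set apart from that background. The fitted log2 fold change was negative for 8 of the 10, all but Per1 and Cry1, with a median of -0.36, against -0.03 over all tested genes. In CPM, the OPA1_LKO and CTRL libraries did not overlap for Dbp, Bhlhe40 and Bhlhe41, all lower in OPA1_LKO, against 8.41% of tested genes that were separated in that direction. In TPM, Bhlhe41 alone was separated as lower (2.79% of tested genes) and Per1 alone as higher (9.52% of tested genes). On the log2(TPM + 1) scale the median of all genes was 0.09, and the share of changed genes that were higher was 80.2%, against 55.4% of 846 in CPM, so log2 differences on the TPM scale sit higher over all genes. With upper-quartile scaling of the counts that share was 67.0%. Without OPA1_LKO 2 or without CTRL 1, Bhlhe40 passed too and the count of changed clock genes was 2. Without CTRL 1 and CTRL 3 together, an alternative chosen after seeing the data, it was 3, with Bhlhe41 and Bhlhe40 lower and Per1 higher (adjusted p = 0.00435, 0.0311 and 0.0497, edgeR). Over all genes, these fits in turn changed 671 of 14308, 1701 of 13902 and 2919 of 13681 tested genes. Counts of 2 and 3 of 10 are too small to set apart from those.

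**Figure D1:**
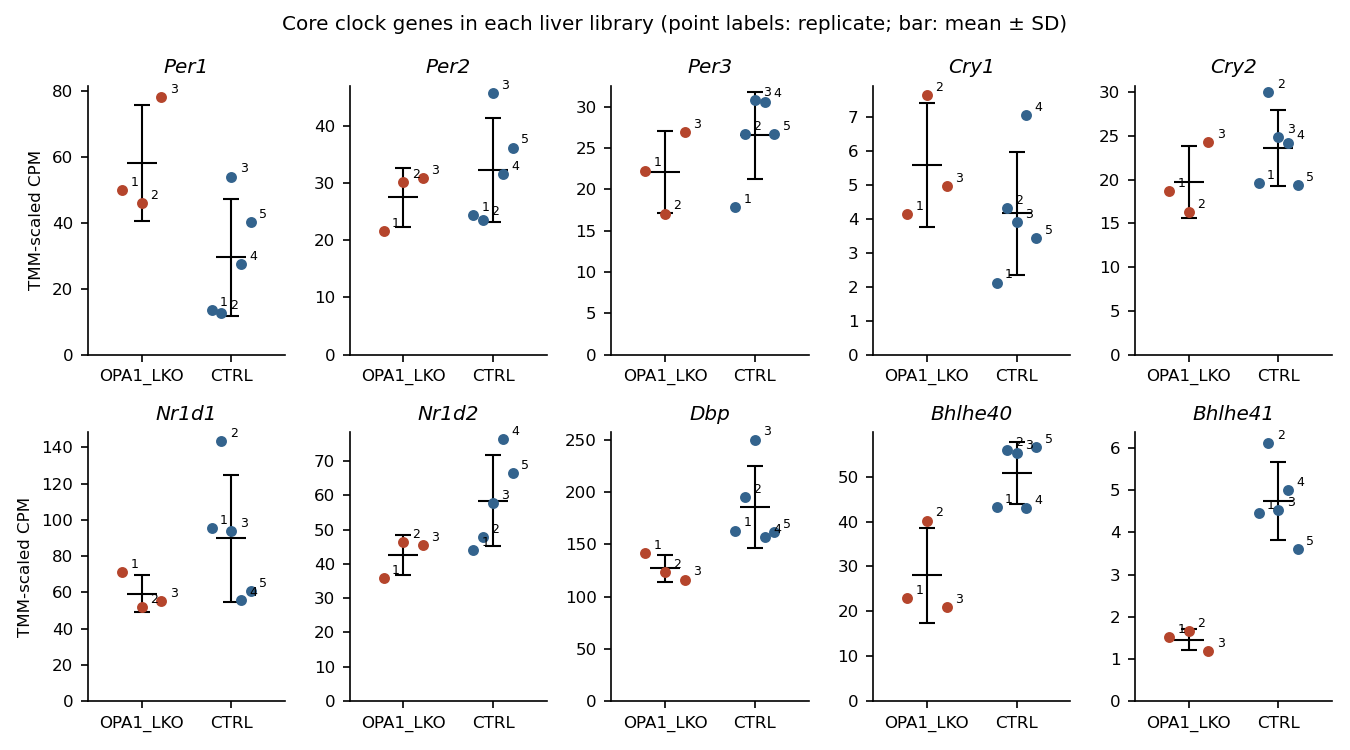
TMM-scaled CPM (y axis, from 0) of the 10 clock genes in each library, OPA1_LKO on the left and CTRL on the right of each panel. Points carry the replicate number, and the bars give the mean ± SD over 3 and 5 libraries. Bhlhe41 lies between 1.18 and 1.66 CPM in OPA1_LKO and between 3.61 and 6.12 CPM in CTRL, whereas the groups overlap for the Per and Cry genes.

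Bhlhe41, on the minus strand at chr6:145858243-145865420 (GRCm38.p6, the build that mm10 names), encodes the E-box repressor DEC2. It was at 1.52, 1.66 and 1.18 CPM in the OPA1_LKO libraries and at 4.46, 6.12, 4.53, 5.01 and 3.61 CPM in the CTRL libraries. Every OPA1_LKO library was below every CTRL library, and the highest OPA1_LKO value was under the lowest CTRL value in TPM as well. The log2 fold change was -1.69 ± 0.25 (SE), a 95% interval of -2.26 to -1.13, and the adjusted p was 0.00602 in edgeR's quasi-likelihood test with Benjamini-Hochberg adjustment. These levels rest on few reads, with 33, 37 and 20 expected counts in OPA1_LKO and 84, 109, 81, 73 and 63 in CTRL. Leaving out any 1 of the 8 libraries kept the call, the adjusted p lying between 0.00473 and 0.0411 (edgeR). The call was lost in limma on the TPM scales, with an adjusted p of 0.0920 on log2(TPM + 1), 0.0758 on the same scale without a filter and 0.0819 on log2(TPM + 0.1).

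Bhlhe40, at chr6:108660629-108666925 on the plus strand, encodes DEC1 and was the more abundant of the pair in TPM. It was at 22.9, 40.2 and 21.0 CPM in OPA1_LKO and at 43.2, 55.96, 55.3, 43.1 and 56.5 CPM in CTRL. OPA1_LKO 2 lay close to the lowest CTRL libraries, and the other OPA1_LKO libraries lay at about the same level, well below them. The log2 fold change was -0.86 ± 0.22 (SE), and the adjusted p of 0.0524 by edgeR was just outside the threshold. It was 0.0109 without OPA1_LKO 2, 0.0327 without CTRL 1 and 0.00873 with DESeq2, and it reached 0.228 without OPA1_LKO 1. In TPM the groups overlapped, since OPA1_LKO 2 at 16.4 TPM lay above CTRL 3 at 16.2 and CTRL 4 at 12.8 TPM.

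The REV-ERB genes and Dbp, which CLOCK and BMAL1 drive through E-boxes, had negative fold changes short of the threshold. Nr1d1 was at 71.0, 51.7 and 55.3 CPM in OPA1_LKO and at 95.5, 144, 94.0, 55.9 and 60.7 CPM in CTRL. All OPA1_LKO libraries lay below CTRL 1, CTRL 2 and CTRL 3, and OPA1_LKO 1 lay above CTRL 4 and CTRL 5. Its log2 fold change was -0.60 ± 0.29 (SE, adjusted p = 0.246, edgeR). Nr1d1 and Thra, the thyroid hormone receptor gene, overlap at their ends on opposite strands of chromosome 11, and although the library kit marks strand, the strand setting of the counting is not given in the sources used here, so the split of reads between them is uncertain. Thra was at 17.5 to 20.1 CPM in OPA1_LKO and 11.2 to 31.7 CPM in CTRL.

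Nr1d2, the paralogue of Nr1d1, was at 35.7, 46.3 and 45.4 CPM in OPA1_LKO and at 44.0, 47.9, 57.7, 76.3 and 66.5 CPM in CTRL. OPA1_LKO 2 and OPA1_LKO 3 overlapped CTRL 1 only, and OPA1_LKO 1 was the lowest library of all. Its log2 fold change was -0.46 ± 0.20 (SE, adjusted p = 0.189, edgeR). Dbp was at 141, 123 and 116 CPM in OPA1_LKO and at 163, 195, 250.2, 157 and 162 CPM in CTRL. No OPA1_LKO library reached the lowest CTRL library in CPM, but in TPM they overlapped, at 88.5 to 122.7 TPM in OPA1_LKO and 98.9 to 158.6 TPM in CTRL. The log2 fold change of Dbp was -0.55 ± 0.18 (SE), and its adjusted p was 0.109 in edgeR and 0.0431 in DESeq2. The end of Dbp overlaps Sphk2 on the opposite strand, and the same limit applies to its count. Per2, Cry2 and Bhlhe40 also overlap other annotated genes (Gm35591, D930015M05Rik and 0610040F04Rik). Per3 overlaps Uts2, which had 1 count in 1 OPA1_LKO library and 0 in the other libraries, against 337 to 551 counts for Per3. Sphk2 was at 26.5 to 33.0 CPM in OPA1_LKO and 30.3 to 44.4 CPM in CTRL.

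Among the PER genes, Per1 had the widest spread. It was at 50.1, 46.0 and 78.2 CPM in OPA1_LKO and at 13.4, 12.6, 54.1, 27.5 and 40.2 CPM in CTRL. The OPA1_LKO libraries were high throughout, CTRL 3 reached their range, and CTRL 1 and CTRL 2 lay far below. The mean was 58.1 ± 17.6 CPM in OPA1_LKO and 29.6 ± 17.8 CPM in CTRL, and the log2 fold change of 0.97 ± 0.44 (SE) had an adjusted p of 0.213 by edgeR, with a 95% interval of -0.01 to 1.95. In TPM the groups did not overlap, at 12.3 to 17.8 TPM in OPA1_LKO and 3.07 to 10.3 TPM in CTRL, with an adjusted p of 0.0881 by limma on the log2(TPM + 1) scale.

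Ratios between clock genes within a library do not depend on how libraries are scaled to each other. Per 100 expected counts of Dbp there were 35.4, 37.3 and 67.3 counts of Per1 in the OPA1_LKO libraries and 8.24, 6.46, 21.6, 17.5 and 24.9 in the CTRL libraries, without overlap. Per 100 counts of Per2 there were 232, 152 and 253 counts of Per1 in OPA1_LKO and 55.1, 53.2, 118, 87.2 and 111 in CTRL, again without overlap. These 2 ratios were chosen after the values were seen and are given without a test.

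Per2 and Per3 showed no such separation. Per2 was at 21.6, 30.2 and 30.9 CPM in OPA1_LKO and at 24.4, 23.7, 45.8, 31.6 and 36.3 CPM in CTRL, a log2 fold change of -0.23 ± 0.23 (SE, adjusted p = 0.582, edgeR). Per3 was at 22.3, 17.1 and 26.9 CPM in OPA1_LKO and at 17.9, 26.7, 30.8, 30.7 and 26.8 CPM in CTRL, a log2 fold change of -0.27 ± 0.20 (SE, adjusted p = 0.468, edgeR). The 95% interval ran from -0.74 to 0.28 for Per2 and from -0.72 to 0.19 for Per3. These intervals include no change and a moderate fall, and on the side of a rise they extend only to small values.

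The cryptochromes, the strongest repressors of CLOCK and BMAL1, did not pass the test. Cry1 was at 4.16, 7.65 and 4.97 CPM in OPA1_LKO and at 2.12, 4.33, 3.91, 7.07 and 3.44 CPM in CTRL. OPA1_LKO 2 and CTRL 4 were the high libraries and CTRL 1 was the low one, and the log2 fold change was 0.43 ± 0.35 (SE, adjusted p = 0.495, edgeR). Cry2 was steadier, at 18.7, 16.3 and 24.3 CPM in OPA1_LKO and at 19.6, 30.0, 24.9, 24.2 and 19.4 CPM in CTRL, a log2 fold change of -0.26 ± 0.19 (SE, adjusted p = 0.433, edgeR).

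**Figure D2:**
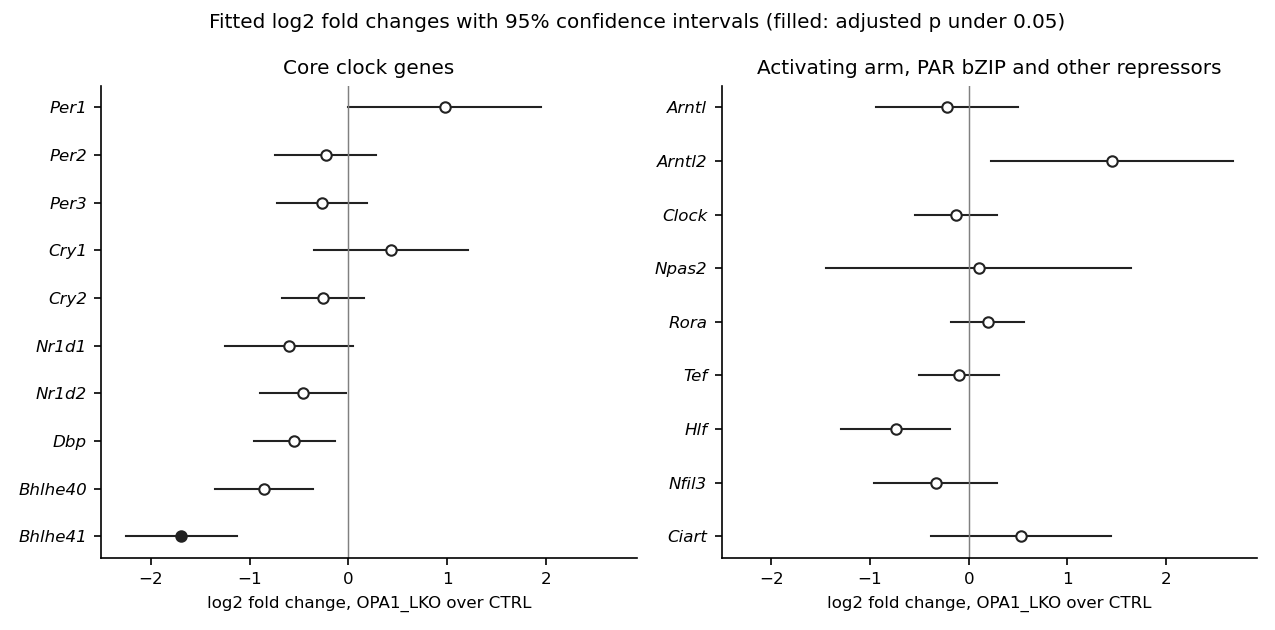
Fitted log2 fold change, OPA1_LKO over CTRL (x axis), of the 10 clock genes (left) and of 9 genes of the activating arm and of partner repressors (right). Lines are 95% confidence intervals and filled points passed the adjusted p threshold. Bhlhe41 at -1.69 is the filled point, and among the genes that did not pass after adjustment, those with an interval below 0 include Nr1d2, Dbp, Bhlhe40 and Hlf, while that of Arntl2 lies above 0.

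The activating arm is the set of factors that the 10 genes repress or answer to. Of its 7 listed genes 6 were tested (Rorb was not), and 0 changed by edgeR, with 2 at an unadjusted p under 0.05, Arntl2 among them, and 0 changed by DESeq2. The count of changed genes was 1, as lower, without CTRL 1, and 3, with 2 higher and 1 lower, without CTRL 1 and CTRL 3. Over all genes, 1701 of 13902 changed in the first of these fits and 2919 of 13681 in the second. The share of all tested genes at an unadjusted p under 0.05 is not given here, so the unadjusted count is a description only. Arntl, which encodes BMAL1, was at 1.89, 1.84 and 2.07 CPM in OPA1_LKO and at 3.08, 3.09, 1.40, 1.99 and 1.72 CPM in CTRL. The OPA1_LKO libraries lay close together inside the CTRL range, and CTRL 1 and CTRL 2 were the high ones. Clock was at 14.5 ± 2.15 CPM in OPA1_LKO and 15.9 ± 3.31 CPM in CTRL, with a log2 fold change of -0.13 ± 0.19 that turned to 0.02 on the log2(TPM + 1) scale. Npas2, the CLOCK paralogue, was near the limit of detection at 13, 15 and 16 counts in OPA1_LKO and 26, 6, 23, 4 and 2 counts in CTRL. Its log2 fold change ran from -0.17 to 0.52, of either sign depending on which library was left out.

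Rora, a nuclear receptor that activates Arntl at the elements REV-ERB proteins occupy, was at 22.9 ± 1.20 CPM in OPA1_LKO and 20.1 ± 3.82 CPM in CTRL. Arntl2, the BMAL1 paralogue, was at 1.66, 0.540 and 2.96 CPM in OPA1_LKO and at 0.344 to 1.17 CPM in CTRL (adjusted p = 0.148, edgeR).

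Of 4 PAR bZIP partners and other repressors 0 changed by edgeR, with 1 at an unadjusted p under 0.05 (Hlf) and 0 changed by DESeq2. Without CTRL 1, and without CTRL 1 and CTRL 3, the count of changed genes was 1, as lower, against 1701 of 13902 and 2919 of 13681 over all genes. The unadjusted count again has no share over all genes beside it and is a description only. Hlf, a D-box activator like Dbp, was at 21.98, 34.8 and 30.1 CPM in OPA1_LKO and at 30.4, 56.4, 38.7, 57.8 and 58.7 CPM in CTRL, a log2 fold change of -0.74 ± 0.25 (SE, adjusted p = 0.107, edgeR, and 0.0250 without CTRL 1). Tef, the third such activator, was at 129 ± 23.0 CPM in OPA1_LKO and 138 ± 24.2 CPM in CTRL. Nfil3, the repressor that competes for D-boxes, was at 10.1 ± 1.51 CPM in OPA1_LKO and 12.7 ± 4.67 CPM in CTRL. Ciart, which represses CLOCK and BMAL1, was at 21.3, 24.6 and 41.6 CPM in OPA1_LKO and at 7.81, 13.7, 36.8, 21.7 and 21.0 CPM in CTRL, so that CTRL 1 and CTRL 2 were the low libraries, as for Per1.

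The clock genes varied among libraries of the same group. Within CTRL the SD of log2 CPM had a median of 0.32 over the 10 genes, against 0.30 over all tested genes, and 6 of the 10 were above that median. The spread was uneven. Per1 had an SD of 0.93 among CTRL libraries, at percentile 93.7 of all tested genes, and its highest CTRL value was 4.30 times its lowest. Cry1 (SD 0.61, percentile 82.7) and Nr1d1 (SD 0.55, percentile 79.6) came next. Bhlhe40 was the steadiest, with an SD of 0.20 at percentile 27.4, and Cry2, Bhlhe41 and Dbp were also below the middle of all genes.

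Within OPA1_LKO the median SD was 0.29 over the 10 genes, against 0.24 over all tested genes, and 8 of the 10 were above that median. There Bhlhe40 was the most variable, with an SD of 0.51, and Dbp the least, with an SD of 0.14. Per1 had an SD of 0.41 and Nr1d1 of 0.24, both narrower than in CTRL. With 3 libraries against 5, these differences in spread were not tested.

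**Figure D3:**
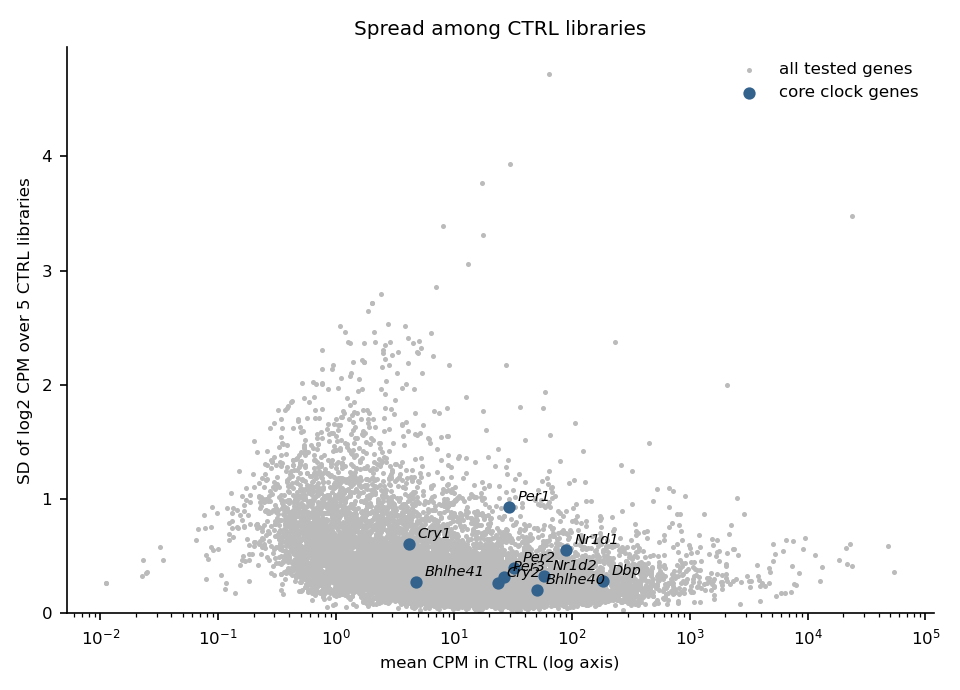
SD of log2 CPM over the 5 CTRL libraries (y axis) against mean CPM in CTRL (x axis, log scale) for all tested genes in grey and the clock genes in blue, leaving out 3 genes with no count in CTRL. Per1 stands above most genes of its abundance at 0.93, and Bhlhe40 lies among the steady genes at 0.20.

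The libraries differed in a way shared by several clock genes. CTRL 1 and CTRL 2 had the lowest Per1 and Ciart and the highest Arntl of all libraries. Nr1d1 did not follow that division, since CTRL 3 at 94.0 CPM was level with CTRL 1 at 95.5 CPM. CTRL 1, CTRL 2 and CTRL 3 all had more Nr1d1 than CTRL 4 and CTRL 5. CTRL 3 had the highest Per2, Per3 and Dbp of all libraries, the highest Per1 among CTRL and the lowest Arntl. CTRL 4 and CTRL 5 had the highest Nr1d2 with the lowest Nr1d1 among CTRL. Usp2, a deubiquitinase with a strong daily rhythm in liver, was chosen after its values were seen and stood at 14.4, 20.9, 60.9, 32.2 and 38.8 CPM in CTRL 1 to CTRL 5, the same order as Ciart except between CTRL 4 and CTRL 5. In OPA1_LKO it was at 29.0, 43.3 and 39.7 CPM.

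Among OPA1_LKO libraries, OPA1_LKO 3 had the highest Per1 and Ciart, OPA1_LKO 1 the highest Dbp and Nr1d1, and OPA1_LKO 2 the highest Cry1 and Bhlhe40. Rgs16, a feeding- and clock-responsive gene also chosen after its values were seen, was at 30.6, 77.4 and 31.7 CPM in OPA1_LKO and at 42.8, 13.4, 147, 49.5 and 66.3 CPM in CTRL, high in OPA1_LKO 2 and in CTRL 3. The labels give no hour of collection, and its part in this spread and in the differences between the groups was not tested.

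**Figure D4:**
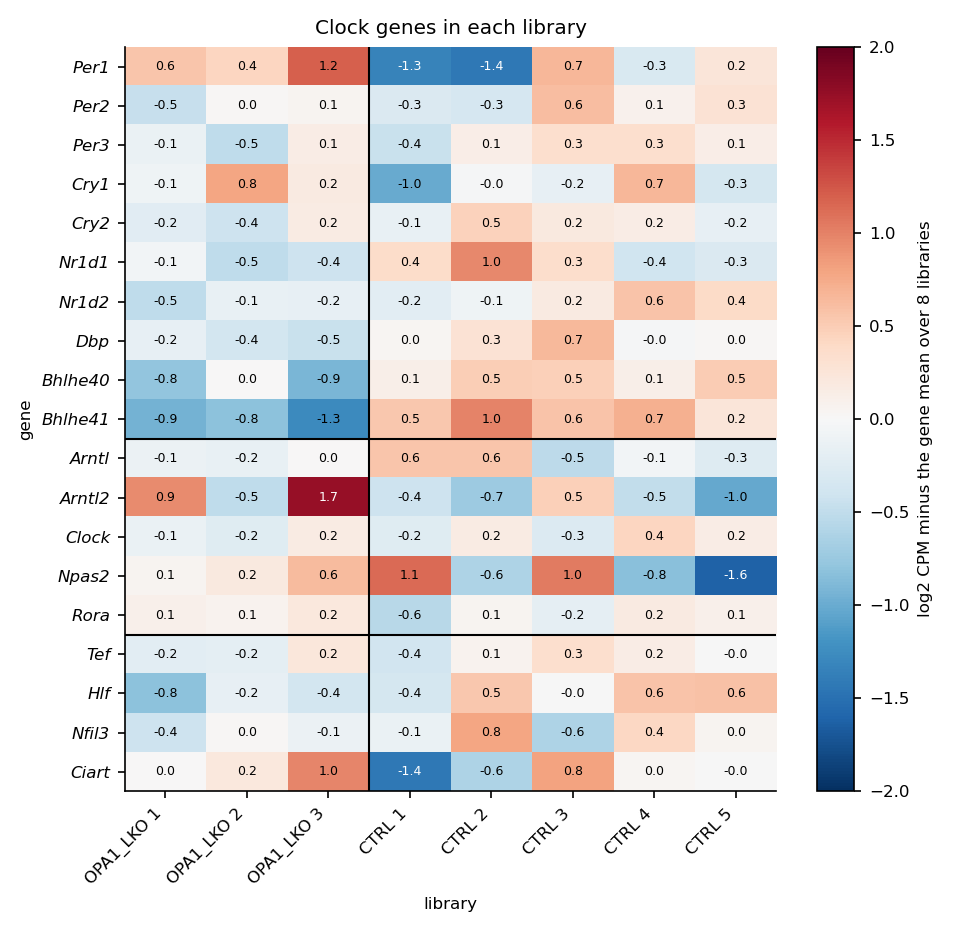
Log2 CPM of each clock gene minus its mean over the 8 libraries (colour and printed value), with OPA1_LKO libraries on the left and CTRL libraries on the right. The rows are the 10 clock genes, then 5 of the 6 tested activating arm genes, then the PAR bZIP partners and other repressors. Bhlhe41 is below its mean in all 3 OPA1_LKO libraries and above it in all 5 CTRL libraries, while Per1 and Ciart are lowest in CTRL 1 and CTRL 2.

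With all libraries, 0 genes of 3 further clock-related lists passed the edgeR test, and the counts turned on single libraries. Of 14 kinases, phosphatase partners and ubiquitin enzymes that act on clock proteins, 0 changed by edgeR, and 1 did, as lower, by DESeq2. Without CTRL 1, and likewise without CTRL 1 and CTRL 3, 3 of them changed, 1 higher and 2 lower. The median log2 fold change was -0.12, against -0.03 over all tested genes. Of 18 liver clock output genes, 0 changed by edgeR and 2 did by DESeq2, 1 in each direction, with a median of -0.19. The output count was 2 without CTRL 1, 1 in each direction, and 6 without CTRL 1 and CTRL 3, 1 higher and 5 lower. It was 1, as higher, without OPA1_LKO 2, with the replicate block and on both filtered TPM scales. Of 10 genes that respond to temperature or heat shock, 0 changed by edgeR or DESeq2, with a median of 0.15, and 1, as higher, without CTRL 4 and with the replicate block. At an unadjusted p under 0.05 by edgeR there were 3 genes of the kinase list, 6 of the output list and 2 of the temperature list. The share of all tested genes at that cut-off is not given here and is above the 6.03% that passed after adjustment. The unadjusted counts are therefore a description only. Over all genes, 846 changed with all libraries, 1701 of 13902 without CTRL 1 and 2919 of 13681 without CTRL 1 and CTRL 3.

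The systemic cues that set liver clock phase were followed through their target genes. Of 14 glucocorticoid-responsive genes 6 rose and 0 fell, with a median log2 fold change of 1.13, against -0.03 over all tested genes, of which 3.34% were called higher. The log2 fold change was negative for 3 of the 14. Like the other lists, this one was chosen with earlier results of these data known, so its counts and median are a description only. The count was 4 without OPA1_LKO 3 and 8 without CTRL 1, where 1 of the 8 fell, against 231 of 14469 and 1701 of 13902 over all genes. The 6 were Ddit4, Sgk1, Zbtb16, Tat, Fkbp5 and Pdk4. Several of them also answer to other signals, Ddit4 to ATF4 and Pdk4 to fasting.

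Ddit4, an inhibitor of mTORC1, was at 31.0, 27.5 and 52.2 CPM in OPA1_LKO and at 4.46, 3.43, 7.72, 5.08 and 4.87 CPM in CTRL (log2 fold change 2.85 ± 0.27, SE, adjusted p = 0.000766, edgeR). Sgk1, a kinase induced by glucocorticoids, was at 40.0, 26.2 and 46.5 CPM in OPA1_LKO and at 8.28, 7.47, 10.9, 10.6 and 11.9 CPM in CTRL (log2 fold change 1.93 ± 0.21, SE, adjusted p = 0.00143, edgeR). Zbtb16, a transcriptional repressor, was at 8.68, 16.4 and 9.88 CPM in OPA1_LKO and at 2.496, 2.19, 3.58, 3.50 and 2.64 CPM in CTRL (log2 fold change 2.02 ± 0.25, SE, adjusted p = 0.00263, edgeR). Tat, tyrosine aminotransferase, was at 1096, 1446 and 1673 CPM in OPA1_LKO and at 247, 556, 427, 504 and 575 CPM in CTRL (log2 fold change 1.61 ± 0.26, SE, adjusted p = 0.0095, edgeR). In each of these 4 genes all OPA1_LKO libraries lay above all CTRL libraries, as was so for 7 of the 14, against 8% of tested genes. In 1 of the 14 they lay below all CTRL libraries, against 8.41% of tested genes. That gene was Lcn2, chosen after its values were seen (log2 fold change -2.09 ± 0.62, SE, adjusted p = 0.0762, edgeR). By DESeq2 7 of the 14 were higher and 1 was lower. Fkbp5, which binds the glucocorticoid receptor complex, lost its call without OPA1_LKO 3 (adjusted p = 0.0128 with all libraries and 0.0615 without it, edgeR). Pdk4, a kinase that inhibits pyruvate dehydrogenase, lost its call without OPA1_LKO 1 and without OPA1_LKO 3 (adjusted p = 0.0173 with all libraries, 0.0899 and 0.0570 without each, edgeR), and in limma on unfiltered log2(TPM + 1) (adjusted p = 0.0871). Tsc22d3, another such target and chosen after its values were seen, was at 126, 253 and 203 CPM in OPA1_LKO and at 35.4, 44.9, 97.7, 119.6 and 146 CPM in CTRL and did not pass (adjusted p = 0.147, edgeR). Like Per1, it was low in CTRL 1 and CTRL 2.

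Of 13 fasting and feeding genes 3 rose and 1 fell, against 3.34% and 2.69% of all tested genes. The median log2 fold change of the 13 was -0.11, against -0.03 over all tested genes. This list too was chosen with earlier results of these data known, so its counts are a description only. Igfbp1, a secreted binding protein that insulin suppresses, was at 83.5, 127 and 88.5 CPM in OPA1_LKO and at 15.1, 3.65, 5.93, 6.65 and 19.6 CPM in CTRL (log2 fold change 3.29 ± 0.46, SE, adjusted p = 0.00445, edgeR). Pck1, of gluconeogenesis, rose by 1.05 ± 0.22 and Angptl4, an inhibitor of lipoprotein lipase, by 0.98 ± 0.24 (log2, SE, adjusted p = 0.0220 and 0.0423, edgeR). Pck1 lost its call in 3 of the 16 alternatives and Angptl4 in 6. With a library left out their adjusted p reached 0.0974 and 0.159 (edgeR). The number of changed genes in this list was 1 without OPA1_LKO 3 and 2 without any one of OPA1_LKO 1, OPA1_LKO 2 and CTRL 2. Whether these cues and the clock genes move together was not tested.

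**Figure D5:**
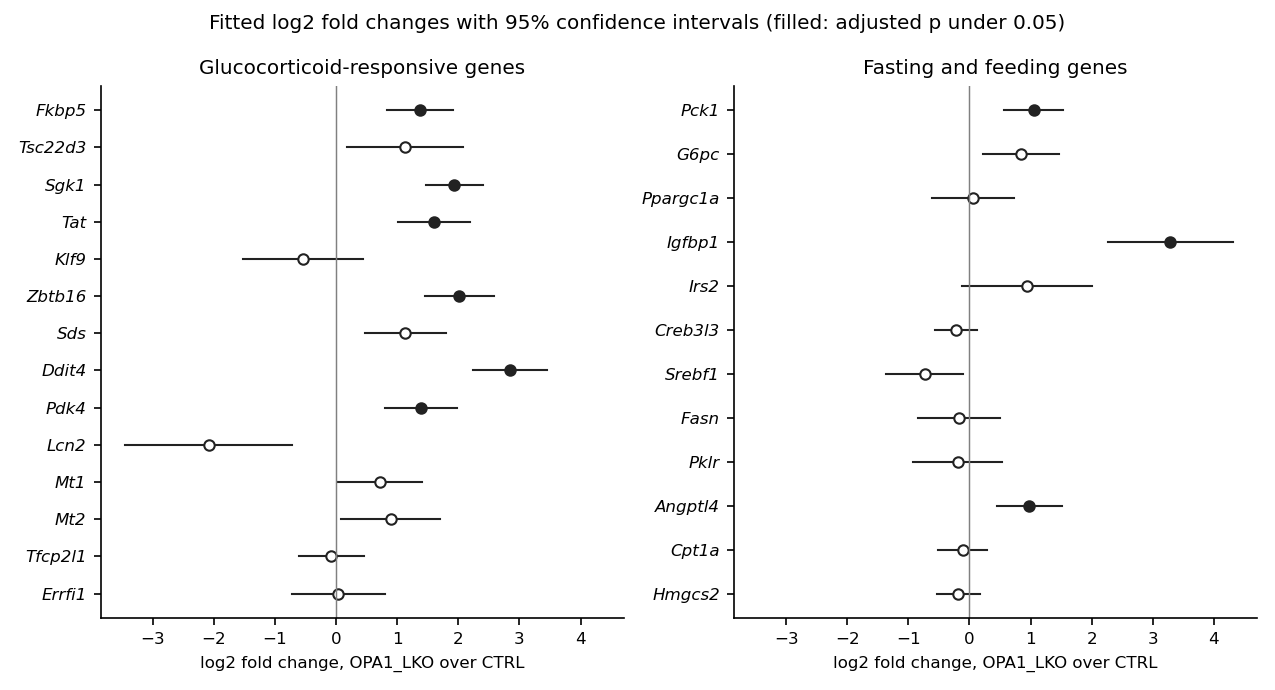
Fitted log2 fold change, OPA1_LKO over CTRL (x axis), with 95% confidence intervals, of 14 glucocorticoid-responsive genes (left) and 12 of the 13 fasting and feeding genes (right). Filled points passed the adjusted p threshold, 6 on the left and 3 on the right, all to the right of 0.

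Cell type markers also differed between the groups. Of 6 bile duct markers 3 rose (Krt7, Sox9 and Spp1), against 3.34% of all tested genes, while Epcam, Krt19 and Cftr had log2 fold changes of 0.96, -0.50 and -0.11 that did not pass. The summed level of the 6 was 139.98 to 202 CPM in OPA1_LKO and 17.5 to 66.3 CPM in CTRL, and Spp1 alone was at 122 to 176 CPM in OPA1_LKO and 13.9 to 33.1 CPM in CTRL. Every duct marker was above 0 in every OPA1_LKO library, while Cftr was at 0 in CTRL 1 and CTRL 2. The fold changes of Epcam, Krt19 and Cftr turned on CTRL 3, the highest library for each, at 16.8, 22.3 and 3.02 CPM. In the other CTRL libraries these genes reached at most 0.892, 1.03 and 0.115 CPM. Those values lay below every OPA1_LKO library, where the lowest were 5.15, 2.13 and 0.54 CPM. Of 6 macrophage, 6 stellate cell, 6 endothelial cell and 6 tested leukocyte and blood markers 0 changed by edgeR. At an unadjusted p under 0.05 by edgeR there were 1, 3, 0 and 2, and 1 stellate marker was higher by DESeq2. The share of all tested genes at that unadjusted cut-off is not given here, so these counts are a description only. The summed macrophage markers were at 116 to 169 CPM in OPA1_LKO and 107 to 483 CPM in CTRL. The stellate markers summed to 112 to 215 CPM in OPA1_LKO and 84.9 to 122 CPM in CTRL. The endothelial markers summed to 74.0 to 152 CPM in OPA1_LKO and 89.0 to 146 CPM in CTRL, and the leukocyte and blood markers to 164 to 465 CPM in OPA1_LKO and 207 to 494 CPM in CTRL. The part of cell composition in the levels of the clock genes was not tested.

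Transcript estimates were compared for the 15 transcripts of 6 clock genes with at least 0.1 TPM on average and a second such transcript in the same gene. Per1 was carried mostly by NM_001159367.1, whose share of Per1 was 61.6% ± 14.4 in OPA1_LKO and 85.5% ± 11.4 in CTRL (SD, n = 3 and 5; exact permutation test, two-sided, p = 0.0714, adjusted p = 0.804). NM_011065.4 was listed at 2.59, 3.46 and 0 TPM in OPA1_LKO and at 0 in all CTRL libraries. Bhlhe41 was assigned wholly to NM_024469.2 in 1 OPA1_LKO library and to NM_001271768.1 in the other OPA1_LKO libraries, so its transcript split is uncertain at this depth. In Dbp, NM_016974.3 held 48.9% ± 7.74 in OPA1_LKO and 53.3% ± 5.24 in CTRL. None of the 15 shares passed the exact permutation test over the 56 divisions of the libraries, before or after adjustment, and the smallest p these divisions allow is 0.0357. After adjustment over 15 shares, a single share at that smallest p could not pass, so the adjusted result could hardly have come out otherwise.

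The genes whose pattern over the 8 libraries was nearest to that of Dbp, by the root mean square difference of centred log2 CPM, were Prkcz (0.109), Gm39606 (0.110), Sap30l (0.112), Mov10 (0.126) and 1810058I24Rik (0.127). For scale, the centred values of Dbp itself had a root mean square of 0.332. Prkcz encodes an atypical protein kinase C and Mov10 an RNA helicase.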

How the data were processed

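RNA was extracted from whole liver and made into stranded mRNA libraries, per the labels' protocols. The tools recorded in the submitters' processing notes are RSEM, STAR, MultiQC and StringTie, with mm10 as the genome. For versions, annotation release and strand setting, nothing is stated in the labels. The authors deposited expected counts per gene, as RSEM estimates them, and TPM per gene and per transcript, 1 column per library. A table of transcript counts was not used.

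The expected counts were rounded, filtered by filterByExpr (count minimum 10), scaled by TMM and tested by edgeR 4.0.16 (quasi-likelihood test, OPA1_LKO over CTRL, R 4.3.3), with Benjamini-Hochberg adjustment over 14036 genes and a threshold of 0.05. Alternatives were DESeq2 1.42.0, upper-quartile scaling, no filter, limma 3.58.1 on log2(TPM + 1) or log2(TPM + 0.1), a replicate block and leaving out each library. Transcript shares of the TPM were compared by exact permutation tests (scipy 1.17.1). The edgeR steps were tested on simulated data.

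Named genes were the 10 clock genes, all of the activating arm and PAR bZIP lists, up to 4 changed genes of each other list by smallest p, Opa1, Thra and the 5 genes nearest to Dbp. The members and lists were chosen with earlier results of these data known. Genes outside this rule are named as chosen after their values were seen, or as cell type markers, overlapping genes or library checks. Some genes of these lists are counted but not reported here.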

Additional observations from a re-analysis of the deposited data

Results flagged for a closer look

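Among 30 clock-related and cue genes examined for a single CTRL library far from the other 4, 1 had one, where chance gives about 1 in 20. Cell type markers and library checks were not among the 30, and some of them also had such a library. Krt19 was at 22.3 CPM in CTRL 3, against 0.319 to 1.03 CPM in the other CTRL libraries. Apoe was at 134 CPM in CTRL 1, against 25200 CPM or more in the other CTRL libraries. Arntl2 was at 1.17 CPM in CTRL 3, against 0.344 to 0.584 CPM in the other CTRL libraries, a gap of 0.71 of the group's range. That gap is at the cut-off of 0.71 for 5 libraries. It rests on few reads, with 21 expected counts in CTRL 3 and 11, 8, 8 and 6 in CTRL 1, 2, 4 and 5.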

How the results depend on the processing

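The 10 clock genes kept the sign of their log2 fold change in all 160 values (10 genes, 16 alternatives), 151 of them on the same side of the threshold. The number of changed clock genes was 1, with 3 by DESeq2, 0 by limma on log2(TPM + 1) with or without the filter and on log2(TPM + 0.1), 1 to 2 with a library left out, and 3 without CTRL 1 and CTRL 3 together. Changed genes over all numbered 846, with 1563 by DESeq2, 383, 367 and 418 by limma on log2(TPM + 1), log2(TPM + 0.1) and unfiltered log2(TPM + 1), 198 (without OPA1_LKO 1) to 1701 (without CTRL 1) with a library left out, and 2919 without CTRL 1 and CTRL 3. The other clock and cue lists held 10 changed genes, 16 by DESeq2, 5 to 20 with a library left out and 27 without CTRL 1 and CTRL 3, and the fasting and feeding list 4, or 1 to 5 with a library left out. The cause of these differences was not tested.

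With the replicate number as a block, 367 genes changed, 1 of them a clock gene (Bhlhe41, adjusted p = 0.0357, edgeR). Deviations of same-numbered libraries correlated at 0.072, 0.0537 and 0.175, and not every library correlated best with its own number, so the numbers were not taken to pair the libraries.

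The sign changed for genes near 0: Arntl to 0.0413 on log2(TPM + 0.1), Clock to 0.0241 on log2(TPM + 1), 0.0434 on log2(TPM + 0.1) and 0.0463 with the block, Npas2 to -0.29 with the block and -0.17 to 0.52 with a library left out, Tef to 0.0677 on log2(TPM + 1) and 0.0693 on log2(TPM + 0.1), and Thra to 0.13 on log2(TPM + 1), 0.16 on log2(TPM + 0.1), -0.23 to 0.13 with a library left out and 0.30 without CTRL 1 and CTRL 3. Precision for Bhlhe41, Npas2, Arntl and Arntl2 is limited by their few counts.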
